A study of Drosophila melanogaster with 2 samples.

Results

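The regions described here are 236 peaks of a transcription factor ChIP-seq experiment that had a high reproducibility score and yet were left out of the deposited peak set. They were chosen by 2 values of the deposited lists, the score of each peak (at least 830) and its absence from the conservative set by arm, start, end and summit. They are 236 of the 7065 peaks of the conservative ranked list that reached this score, or 3.34%, and the other 6829 peaks made up the set. The whole ranked list held 124532 peaks. Because score and membership chose these peaks, both are given as descriptions only.

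The experiment was done on embryos of Drosophila melanogaster, aged 8 to 24 h per the source label, of a strain carrying an insertion that makes a CG9932-eGFP fusion protein. Chromatin of whole embryos was precipitated with an antibody against GFP, so all cell types of the embryo were mixed. The 2 samples were labelled biological replicates 1 and 2 of the same group, and both carried the fusion. A control experiment named in the labels was not analysed here, so no background value stands beside the signals, and the part of the tag or of the locus in any peak was not tested. The gene for CG9932 itself lies at 13021868 to 13060140 on 2L of dm6. No left-out summit and 5 kept summits lay inside it.

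In ChIP-seq, DNA bound by a protein is enriched and sequenced, and places with more fragments than their surroundings are called as peaks. The irreproducible discovery rate (IDR) then asks how well the ranks of the peaks repeat between 2 sets of reads, and a low IDR gives a high score. Peaks of transcription factors mostly mark promoters and enhancers, whereas satellite repeats, transposons and the ribosomal DNA can gather reads from many copies at once. The score is a whole number, and 830 stands for an IDR of about 0.01 on the scale of the deposited lists. The highest score is 1000.

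The sequences at the 6 strongest left-out summits outside annotated untranslated regions, all on 2L or 3R, are printed to show that the group holds single-copy DNA of ordinary arms. Each is 121 bases of the plus strand of the RefSeq Release 6 genome (dm6), with the summit in the middle. Capitals would mark bases covered by a 36-base word that occurs more than once in the genome, counting both strands, and these 6 have no such base.
cbt upstream region, chr2L:481032-481152: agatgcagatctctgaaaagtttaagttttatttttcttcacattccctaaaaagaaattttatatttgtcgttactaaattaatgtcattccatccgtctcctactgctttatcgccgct
Lk6 intron, chr3R:11760987-11761107: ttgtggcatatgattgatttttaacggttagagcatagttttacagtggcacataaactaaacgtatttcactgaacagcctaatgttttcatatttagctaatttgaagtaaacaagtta
larp promoter, chr3R:28326530-28326650: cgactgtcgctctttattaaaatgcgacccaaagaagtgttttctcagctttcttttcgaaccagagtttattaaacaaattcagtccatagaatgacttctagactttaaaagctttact
CG18428 promoter, chr3R:24109170-24109290: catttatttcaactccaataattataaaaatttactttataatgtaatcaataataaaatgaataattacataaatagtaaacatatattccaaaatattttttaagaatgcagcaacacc
trx intron, chr3R:14283821-14283941: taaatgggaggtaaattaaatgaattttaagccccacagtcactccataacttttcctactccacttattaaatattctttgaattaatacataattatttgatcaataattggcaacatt
tara intron, chr3R:16236935-16237055: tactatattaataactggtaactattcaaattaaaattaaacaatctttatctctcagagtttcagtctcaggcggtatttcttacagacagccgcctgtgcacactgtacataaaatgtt

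The sequences at the 4 strongest left-out summits in repeated DNA are shown for contrast, with the same marking. R1 and R2 are retrotransposons that insert into ribosomal RNA genes, and HeT-A is a retrotransposon of the chromosome ends. 1360 is a DNA transposon. The label on 3R names both elements that the whole peak interval touched. The printed window there overlapped Dm88, which ends at 12470922, but not the 1360 copy, which starts at 12471073. In the R2, R1 and Dm88 windows all 121 bases were in capitals, and the R1 window held a word found 59 times in the genome. In the HeT-A window 87 bases were in capitals.
R2 element on X, chrX:23222268-23222388: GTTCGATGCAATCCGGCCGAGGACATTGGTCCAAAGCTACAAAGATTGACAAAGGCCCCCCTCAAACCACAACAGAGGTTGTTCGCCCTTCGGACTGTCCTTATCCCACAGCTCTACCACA
R1 element on 3L, chr3L:25134007-25134127: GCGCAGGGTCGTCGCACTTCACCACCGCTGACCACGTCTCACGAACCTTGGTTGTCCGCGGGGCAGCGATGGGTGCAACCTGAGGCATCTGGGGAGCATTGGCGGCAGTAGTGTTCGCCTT
1360 and Dm88 elements on 3R, chr3R:12470845-12470965: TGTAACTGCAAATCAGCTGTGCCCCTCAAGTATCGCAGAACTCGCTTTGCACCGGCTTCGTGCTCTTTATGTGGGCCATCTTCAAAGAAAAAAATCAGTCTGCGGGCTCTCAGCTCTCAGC
HeT-A element on 4, chr4:1279229-1279349: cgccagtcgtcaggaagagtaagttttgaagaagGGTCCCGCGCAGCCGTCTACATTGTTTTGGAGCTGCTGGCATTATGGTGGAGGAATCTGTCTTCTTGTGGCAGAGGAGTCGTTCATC

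The signal, the authors' own value for the height of a peak, ran close in left-out and kept peaks taken over all places. Both groups had passed the same score, which rests on signal ranks, so likeness in signal and score is description only. The median signal was 158 in left-out peaks (quartiles 99.7 and 273) and 160 in kept peaks (quartiles 102 and 308). On the arms alone, a choice made after seeing the data, it was 176 in left-out and 161 in kept peaks. The strongest left-out peak reached 4958 and was the fifth of all peaks in the ranked list. The 100 strongest peaks of the list held 4 left-out peaks, which is 1.69% of the left-out peaks, and 96 kept peaks, which is 1.41% of the kept peaks. At the lower end, 8 left-out peaks had a signal under 30, and each of the 8 overlapped another left-out peak, as a further summit in a shared stretch. The width was 370 bp in 67.4% of left-out peaks and 64.7% of kept peaks, and the highest score was reached by 83.1% and 82.8% of them.

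**Figure D1:**
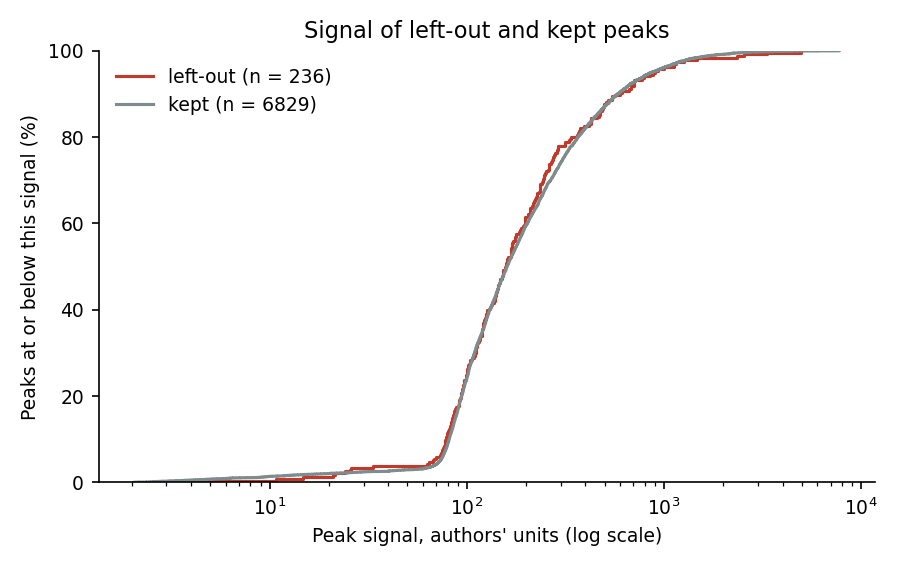
Cumulative share of peaks, in percent, at or below a given signal (log scale, authors' units) for the 236 left-out and 6829 kept peaks. The curves run close together, with medians of 158 in left-out and 160 in kept peaks.

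The left-out peaks were unevenly spread over the genome. 3R held 111 of them and 2L held 44, together 65.7% of all. Read against the peaks past the score, 6.54% of those on 3R were left out (111 of 1696, 95% Wilson interval 5.46 to 7.82%) and 3.46% of those on 2L (44 of 1273, 2.58 to 4.61%). The shares were lower on 2R, at 0.934% (12 of 1285), on X, at 0.837% (11 of 1315), and on 3L, at 0.64% (9 of 1407). The interval of 3R did not meet that of any other large arm, and that of 2L lay above those of 2R, X and 3L. Chromosome 4, the small and mostly heterochromatic autosome, had 3 left-out peaks of 4, or 75%. On scaffolds outside the arms, unplaced or assigned to a chromosome without a position, 46 of 84 peaks were left out, or 54.8% (44.1 to 65.0%). Of the left-out ones, 26 were on unplaced scaffolds and 20 on scaffolds assigned to Y. The kept ones included peaks on scaffolds assigned to X, so 54.8% is not the share of unplaced and Y scaffolds alone. The 46 left-out peaks lay on 37 scaffolds, none of which held a kept peak. Most of these scaffolds had only 1 high-scoring peak and none had more than 3, so there was little room for a scaffold to hold both kinds. Such intervals cover counting error only, and neighbouring peaks are not independent.

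**Figure D2:**
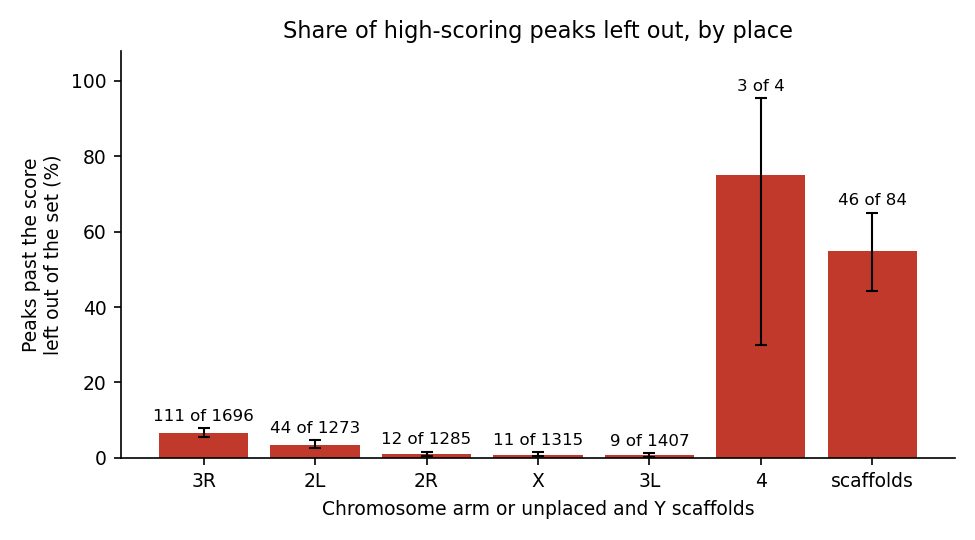
Share of the peaks past the score that were left out of the conservative set, in percent (bars), with 95% Wilson intervals (lines) and counts. Bars are for each chromosome arm and for all scaffolds outside the arms together, which include scaffolds assigned to X. The share was 6.54% on 3R and 3.46% on 2L, under 1% on 2R, X and 3L, and 54.8% on the scaffolds.

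By place and, on the arms, by sequence, the left-out peaks were sorted into 3 kinds. On the arms, 174 lay in single-copy DNA and 16 in repeated DNA, here a window of 100 bp either side of the summit in which at least 50% of the 36-base words had another copy. Single-copy thus means below that limit. Of the 174, 167 had no repeated word, and the highest share among them was 47.6%. The other 46 were the scaffold peaks, whose sequence was not analysed here. Repeated windows made up 8.42% of the left-out arm peaks (16 of 190, 5.25 to 13.2%), against 0.206% of the kept arm peaks (14 of 6790, 0.123 to 0.346%). The repeated kind was absent from 2L and 2R and made up 8 of the 11 left-out peaks on X, 2 of 3 on chromosome 4, 2 of 9 on 3L and 4 of 111 on 3R. Intervals of 5.79% of the left-out arm peaks (11 of 190) and 0.766% of the kept arm peaks touched an annotated transposable element. On 3R and 2L, 151 of the 155 left-out peaks were single-copy. The median signal was 194 in the single-copy left-out peaks, 121 in the repeated and 113 in the scaffold peaks, against 161 in kept arm peaks.

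The strongest left-out peaks lay in or near protein-coding genes of the arms. All of the 25 strongest were single-copy, 17 of them on 3R and 6 on 2L, and 15 had their summit within 500 bp of the transcription start site (TSS) of a protein-coding gene. The weakest of these 25 had a signal of 563. Each of the 25 overlapped a left-out peak in the list of replicate 1 and in that of replicate 2.

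The strongest of all lay on 2L with its summit at 481092, 1404 bp upstream of cbt (cabut, a zinc finger transcription factor) and inside an intron of ush, whose product is a cofactor of GATA factors. Its signal was 4958 in the conservative list, 2826 in the list of replicate 1 and 2158 in that of replicate 2. By signal it ranked at 4 in replicate 1 and at 5 in replicate 2, so both replicates had it among their strongest peaks. The next lay in an intron of Lk6, which encodes a kinase that acts on the translation factor eIF4E. The Lk6 summit, at 11761047 on 3R, had a signal of 3321 in the conservative list, 1963 in replicate 1 and 1369 in replicate 2, with ranks of 16 and 18. A peak 326 bp upstream of a larp TSS (an RNA-binding protein of mRNA translation) had a signal of 2533, with 1389 in replicate 1 and 1134 in replicate 2. A peak 106 bp upstream of CG18428, beside the gene of the cap-binding protein eIF4EHP, had a signal of 2348, with 1350 in replicate 1 and 988 in replicate 2. All 4 stood within the first 50 ranks of both replicates.

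Further strong peaks lay at trx, tara, Kdm2 and Sin3A. A summit in an intron of trx, whose product trithorax is a histone methyltransferase that keeps Hox genes active, had a signal of 1476, with 906 in replicate 1 and 606 in replicate 2. In tara, which encodes a transcriptional co-regulator, an intronic summit had a signal of 1270, with 673 and 628 in replicates 1 and 2. A second summit, 1139 bp upstream of tara, reached 1126. Kdm2, a histone demethylase gene, had intronic summits of 905 and 881. At Sin3A, which encodes the scaffold of a histone deacetylase complex, 3 left-out summits on 2R had signals of 611, 475 and 373. These genes hold their left-out peaks mainly in introns or upstream of a start site.

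Among promoters, the summits 118 bp upstream of Sirt6 (a deacetylase gene) and 118 bp upstream of Nuak (a kinase gene) had signals of 1150 and 1129. These lie on either side of pont, which encodes an ATPase of chromatin remodelling complexes. The strongest left-out peak on 3L lay 84 bp upstream of an isoQC TSS, a glutaminyl cyclase gene, with a signal of 997. A summit 88 bp upstream of crp, a helix-loop-helix transcription factor gene, reached 931. Others of the 25 strongest were near CG4297, at 792, CG6966, at 770, Vha55, a subunit of the vacuolar proton pump, at 709, TfIIA-S, a general transcription factor, at 707, and CG8176, at 705. The list closed with Rh5, Ras85D (the Ras GTPase), Ubc6 (a ubiquitin-conjugating enzyme) and Unc-115a, at 677, 668, 601 and 563. The summits at CG6966, Vha55, TfIIA-S, CG8176, Ras85D and Ubc6 lay 24 to 252 bp upstream of the start site.

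Over all left-out arm peaks, 45.3% of summits lay within 500 bp of a protein-coding TSS (86 of 190, 38.4 to 52.4%), against 51.1% of kept arm summits (3467 of 6790, 49.9 to 52.3%). In single-copy DNA the share was 49.4% (86 of 174), and none of the 16 repeated summits was at a promoter. Introns held 31.1% of left-out summits (59 of 190, 24.9 to 37.95%), an interval that held the share of kept summits (2103 of 6790). Intergenic sequence held 38 of the 190 left-out summits (interval 14.9 to 26.3%) and 12.1% of kept summits (11.3 to 12.9%), and 15 of the 38 intergenic left-out summits were in repeated DNA. Of the promoter summits, 87.2% of the left-out (75 of 86, 78.5 to 92.7%) and 82.1% of the kept lay upstream of the start site. The median distance to the nearest TSS was 832.5 bp in left-out arm peaks (429 to 1167, 95% interval), against 449.5 bp in kept arm peaks (402 to 506). Within single-copy DNA it was 517 bp in left-out peaks (284 to 968).

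Left-out peaks stood in runs. With summits up to 10 kb apart joined, the 190 arm peaks formed 88 groups, of which 48 held 1 peak, 19 held 2 and 21 held 3 or more. Over arms and scaffolds there were 126 groups, and 45.3% of the left-out peaks were in groups of 3 or more (107 of 236). The same joining put 64.4% of the kept peaks in such groups. The kept peaks number 6829, and the part of their number in this share was not tested. Of the 40 arm groups with at least 2 left-out peaks, 39 had no kept peak between their outermost summits. The exception was tara, with 2 kept summits inside.

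The makeup of the surroundings changed with distance. Around left-out arm peaks, 94.8% of the other high-scoring summits within 1 kb were themselves left out (92 of 97 pairs), and 87.0% between 1 and 2 kb (100 of 115). The share was 72.0% between 2 and 5 kb, 45.6% between 5 and 10 kb, 22.9% between 10 and 20 kb and 6.34% between 20 and 50 kb. Around kept peaks it stayed between 0.236% and 3.04% in all these ranges. A pair of left-out peaks is counted from both ends, and the pairs of a group share their peaks. With left-out and kept peaks counted together, 65.3% of left-out arm peaks (124 of 190, 58.3 to 71.7%) had at least 3 other high-scoring summits within 10 kb. The share was 38.3% of kept arm peaks (37.2 to 39.5%). By the shares above, the neighbours of left-out peaks within 5 kb were mostly left-out themselves, so this density includes the runs. The density of kept peaks alone was not compared. The nearest kept summit was at a median of 8417 bp from a left-out arm summit, and the closest lay 506 bp away. A kept summit within 1 kb was found for 5 of the 236.

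**Figure D3:**
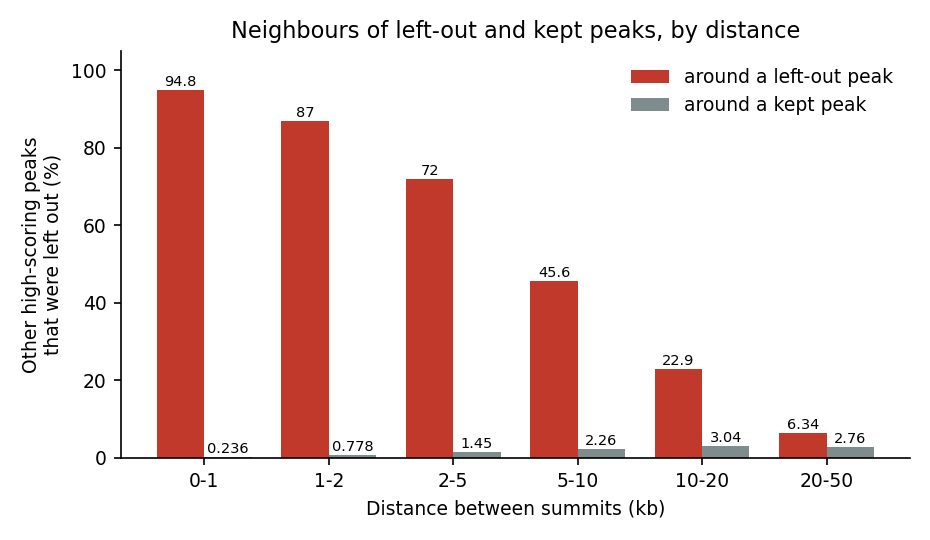
Share, in percent, of the other peaks past the score that were left out, by distance between summits in kb, around left-out peaks and around kept peaks on the arms. Around left-out peaks the share was 94.8% within 1 kb and 6.34% between 20 and 50 kb, and around kept peaks it did not exceed 3.04%.

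The 10 groups with the most left-out peaks held 67 of the 190 arm peaks, or 35.3%, with groups of equal number ordered by their strongest signal. All 10 lay on 3R or 2L. The largest, at tara, ran from 16224512 to 16255297 on 3R with 14 left-out summits, 13 of them in introns of the gene and none at a promoter, with signals of 67.9 to 1270. On 2L, 9 summits between 12003062 and 12012380 lay in intergenic sequence on both sides of Rh5, the gene of a visual rhodopsin, with signals of 14.8 to 677. The third, from 9048102 to 9057552 on 3R, held 8 summits at the divergent starts of Rel (an NF-kappaB factor of immunity) and Mst85C and along Kdm2. Its signals ran from 10.8 to 905.

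The group at cbt and CG4297 had 6 summits between 471326 and 481950 on 2L, 5 of them with a signal above 100. A further summit there, in the 5' UTR of cbt at 479111, had a score of 829 and so fell just under the threshold. At trx, 6 summits over 4351 bp included the strong intronic one and 5 others of 91.9 to 198. At COX7AL2, named for a subunit of cytochrome c oxidase, 6 summits had signals of 77.8 to 261. Groups of 5 covered Unc-115a, trbd and the dmt promoter on 3R, and the promoters of chic (profilin), eIF4A (an RNA helicase of translation initiation) and ifc (a sphingolipid desaturase) on 2L. All 5 summits of the chic and eIF4A group were at promoters, with signals of 91.7 to 287. Of 6 groups with 4 summits, Lk6 and crp had the strongest peaks and complete the 10. The other 4 were at InR, at Pgk and Bacc, at ATPsynC and CG12054, and, on 2R, at Adk3 and Gadd45.

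**Figure D4:**
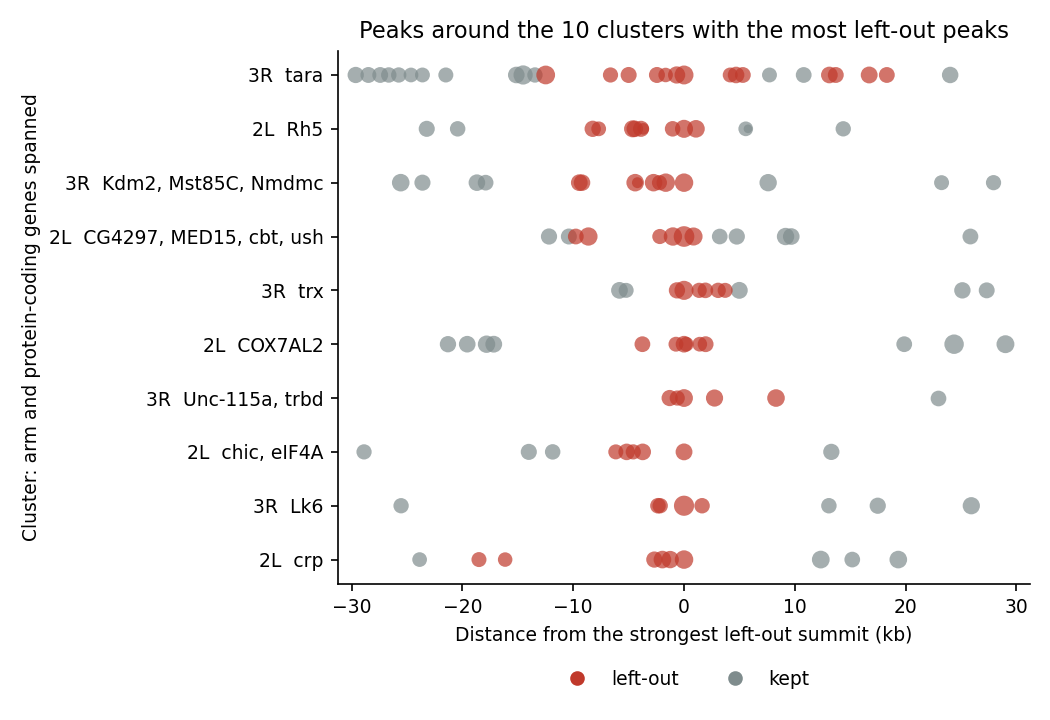
High-scoring peaks within 30 kb of the strongest left-out summit in each of the 10 groups with the most left-out peaks, as distance in kb, with dot area growing with the log of the signal. Left-out peaks form runs in which a kept peak lies between them at tara only, and kept peaks lie outside on both sides in most groups.

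Inside protein-coding genes, left-out summits fell in 54 genes, and 29 of these had no kept summit. The share of all protein-coding genes without a kept summit is not given here, so this count is description only. The most were in tara, with 13 left-out and 2 kept, and Kdm2, with 6 left-out and 0 kept. Other genes were split: crp had 5 left-out and 1 kept, ush 4 left-out and 9 kept, InR (the insulin receptor) 3 left-out and 4 kept, and larp 2 left-out and 6 kept. In these genes the boundary between left-out and kept peaks ran through the gene. The 54 genes had a median length of 14465 bp, against 8482 bp for genes with a kept summit inside and 2166 bp for all 13945 protein-coding genes on the arms.

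In the fixed gene classes, genes with a summit within 500 bp were counted, to be read against the 3.34% of all high-scoring peaks that were left out. No histone, rRNA, snRNA, Hsp70, Stellate, cuticle or chorion, or Hox gene on the arms had a left-out summit. Kept summits were found at 3 histone, 6 snRNA, 11 cuticle or chorion and 6 of 8 Hox genes and at 0 rRNA, Hsp70 and Stellate genes, so a count of 0 says little here. A single tRNA gene (tRNA:Glu-TTC-1-5) and a single snoRNA gene (snoRNA:185) shared 1 left-out summit on 2R with a signal of 188. Of 92 ribosomal protein genes only RpL13A had one, with a signal of 337, and 67 had a kept summit. A count of 1 gene is too small to set against the overall share, which is of peaks. Among 5809 annotated transposable elements, 17 had a left-out summit within 500 bp and 129 had a kept one, more left-out for each kept than over all peaks. A left-out summit of 519 also lay in lncRNA:Hsromega, a noncoding RNA of the heat shock response.

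The 16 peaks in repeated DNA had signals of 83.1 to 374, and 14 of them lay more than 10 kb from any protein-coding TSS. The strongest, at 23222328 on X, was in an R2 element and had 374 in the conservative list, 221 in replicate 1 and 157 in replicate 2. The R1 summit on 3L had 197, with 113 in replicate 1 and 83.0 in replicate 2. R1, R1A1 or R2 elements were touched by 5 of the 16 and HeT-A by 2. None had 3 or more other high-scoring summits within 10 kb, so these peaks stood apart from the runs described above. Their median GC content was 53.5%, against 41.0% in single-copy left-out and 38.3% in kept arm peaks. On the scaffolds the strongest left-out peak had a signal of 416.

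Short motifs were searched in both strands of the windows, and matches may overlap one another. The DNA replication-related element, TATCGATA, was in 3.16% of left-out windows (6 of 190, 1.46 to 6.72%) and 5.43% of kept windows. GAGAGAG, the core of GAGA factor sites, was in 7.37% of left-out (14 of 190, 4.44 to 11.99%) and 4.09% of kept windows. The E-box CAGCTG was in 12.1% of left-out and 10.5% of kept windows, and the Motif 1 core GGTCACAC in 4.21% and 3.17% of them. The satellite units AAGAGAAG and AATATAAT were in 1.05% and 5.79% of left-out windows, against 0.898% and 4.14% of kept windows. CACACACA was in 7.89% of left-out (15 of 190, 4.84 to 12.6%) and 4.06% of kept windows. The interval of the left-out share held the kept share for all of these but GAGAGAG and CACACACA.

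In each of the other pairs of deposited lists, most of the 236 places were left out as well. The optimal pair left out 252 peaks of 7580 past the score, replicate 1 alone 207 of 6243 and replicate 2 alone 181 of 4730. These pairs share reads with the conservative pair, so they are no independent repeats of it. Of the 236 peaks, 215 overlapped a left-out peak of the optimal pair and 2 overlapped its set. In replicate 1, 180 overlapped a left-out peak, 1 overlapped the set and 55 met only peaks under the score. In replicate 2, 161 overlapped a left-out peak, 0 overlapped the set, 73 met only peaks under the score and 2 met no peak. A left-out peak of each replicate lay at the same place for 142 of the 236. Among the 100 strongest this held for 96, and among the 100 weakest for 17. A place could count as left out in a replicate only if a peak there passed the score in that replicate. The part of the replicate scores in this difference was not tested.

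By rank, left-out peaks ran along with kept peaks in both replicates. Both groups had passed the same score, which rests on these ranks, so the choice of peaks in part set this likeness. A summit of each replicate within 100 bp was found for 91.9% of left-out peaks (217 of 236) and 93.0% of kept peaks. Over the peaks with a summit within 100 bp in that replicate, the median rank in replicate 1 was 3596 in left-out peaks (n = 225) and 3482 in kept peaks (n = 6534). In replicate 2 it was 3192 in left-out peaks (n = 220) and 3433 in kept peaks (n = 6485). The ranks are in lists of 103335 and 115968 peaks.

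**Figure D5:**
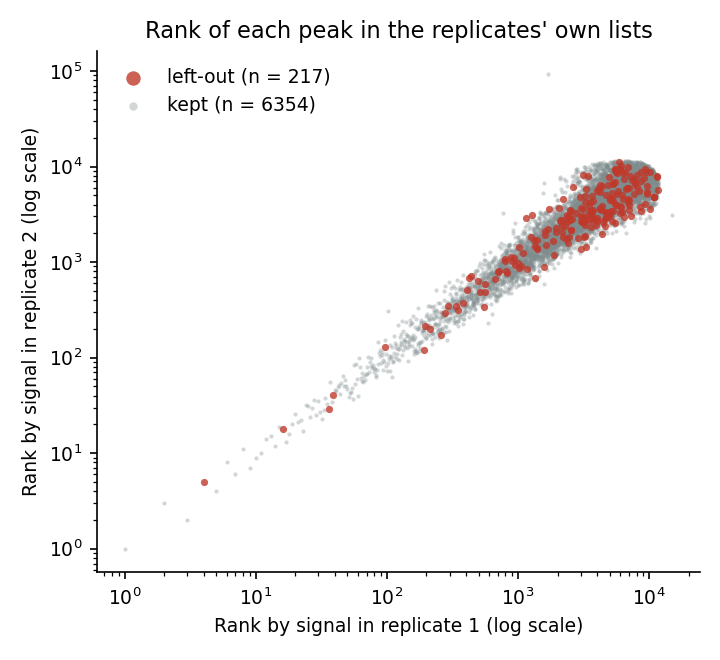
Rank by signal in the list of replicate 1 against that in replicate 2 (both log scale, rank 1 the strongest) for the 217 left-out and 6354 kept peaks with a summit within 100 bp in both lists. Left-out peaks lie in the band of the kept peaks, from rank 4 in replicate 1 and 5 in replicate 2 downwards.

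At the threshold itself, 4 left-out peaks had a score of 830, near Ald1, ACC, ASPP and Adhr, with signals of 85.0, 74.7, 64.3 and 33.5. Their IDRs of 0.0100041 to 0.0100251 lay just over 0.01, so they reached the score without reaching that IDR. The lowest score in the conservative set was also 830. Just under it, at 829, stood 8 peaks. Those near Irk1, CG6168, Eip63E and shep had signals of 96.4, 91.7, 80.3 and 76.96, and those near CG43401, hh, Rpn13R and cbt had 75.5, 73.4, 69.3 and 44.0.

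The deposited file descriptions list 1 input for the sets that they do not list for the ranked lists. That input was not analysed here, and whether it accounts for the left-out peaks was not tested.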

How the data were processed

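ChIP-seq of CG9932-GFP embryos was deposited as 8 peak lists on dm6, 4 ranked lists and 4 thresholded sets. Each set was paired with the ranked list that holds all its peaks. Per the deposited lists, each peak has a whole-number score (IDR score), a signal and, in ranked lists, a -log10 value of the global IDR. No source used here gives the aligner or the peak caller, and 31 further value columns were not used. No read depth is given.

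Per the deposited file descriptions, the conservative and optimal lists rest on both replicates and the others on 1 replicate each. Peaks were matched by arm, start, end and summit. Genes came from Ensembl release 115. A summit at a promoter was counted there first, before exons, introns and intergenic sequence. Repeated words were counted over the whole RefSeq Release 6 genome on both strands, and scaffold peaks were not annotated. Values per replicate came from the nearest summit within 100 bp in that replicate's list. No test was made, since peaks are not replicates and there is 1 group. Shares have 95% Wilson intervals.

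Named genes are those nearest the 25 strongest left-out peaks, those in the 10 largest groups, members of fixed lists and those at the score threshold. InR, lncRNA:Hsromega and the split of left-out and kept summits within single genes were named after their values were seen. Members, lists and rules were chosen with earlier results of these data known. Alternatives covered overlap, list pair, grouping gap, promoter width, summit choice and word length. Scripts were tested on simulated data. Tools were pandas 2.3.3 and numpy 2.4.6 in Python 3.11.15, with scipy 1.17.1 for intervals and matplotlib 3.10.9 for plots.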

Additional observations from a re-analysis of the deposited data

How the results depend on the processing

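The number of left-out peaks, 236, was the same when absence meant no overlap with any set peak, and 252 with the optimal pair, 196 with the highest score only and 181 to 207 with 1 replicate left out. Groups numbered 159 with a gap of 2 kb and 112 with 50 kb. The share in groups of 3 or more was 27.1% with a gap of 2 kb and 56.4% with 50 kb, against 45.3%. Kept peaks between left-out peaks numbered 0 with a gap of 2 kb and 29 with 50 kb, against 2. The share at promoters was 36.3% with 200 bp and 53.2% with 1000 bp either side, against 45.3%, and 45.2 to 49.4% with 1 replicate left out. The gap and promoter width set these values by their construction; the cause of the move with 1 replicate left out was not tested. The median signal was 176 on the arms alone, a choice made after seeing the data, against 158. Repeated sequence was found in 1.58% when 0.9 of the words had to be repeated, against 8.42%; the other word lengths, windows and limits gave 5.26 to 11.1%. The other alternatives moved no value beyond its interval or by more than 1.5 times. No paired analysis was possible because there is 1 group. No read depth was given, so how depth limits single peaks was not tested.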
